A study of Mus musculus with 7 samples.

Results

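Endothelial cells line blood vessels, and pericytes and smooth muscle cells, together called mural cells, wrap around them. In the brain the endothelium is sealed by tight junctions and carries transporters that control what passes into the tissue, and pericytes help to keep that barrier closed. Gliomas depend on these vessels and remodel them. The transcripts described here are 10 genes that mark these cells, out of 55385 gene IDs counted. They were taken by symbol: Kcnj8, Abcc9, Rgs5, Pdgfrb and Acta2 for mural cells, Cldn5, Ly6c1, Slco1a4 and Pecam1 for endothelium, and Col4a1 for the basement membrane beneath both. The set was chosen by the level of Kcnj8, which was lower with the Chi3l1 hairpin in these same libraries. The comparison between hairpins is therefore given for all 10 as a description, and no p-value is used to support a difference in them.

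Macrophages were sorted from intracranial gliomas that grew in C57BL/6 mice after injection of 100000 QPP7 glioma cells. In the shChi3l1 group (3 libraries) the injected glioma cells carried a hairpin against Chi3l1, which encodes the secreted glycoprotein chitinase-3-like-1. In the shSC group (4 libraries) they carried a control hairpin. The labels put the hairpin in the injected cells and name none in the host, whose vessels and macrophages are studied here. They give no age and do not state that the libraries are from different animals, so p-values measure only the spread between libraries, which may be technical. The targeted gene, annotated as Chil1, had 28, 31 and 7 reads in shChi3l1 libraries and 23, 28, 24 and 18 reads in shSC libraries. These libraries are of macrophages, so this is no check of the knockdown in the glioma cells. Reads assigned to genes numbered 23174989 to 36502664 per shChi3l1 library and 19169129 to 32590781 per shSC library.

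The libraries carried the RNA of macrophages, with a small vascular share. All 12 macrophage markers examined had at least 100 reads in every library. Their CPM, reads scaled to an equal library total by TMM, summed to 31418 to 34555 in shChi3l1 and 21933 to 31517 in shSC libraries. A list of 25 further endothelial genes summed to 58.6, 132 and 343 CPM in shChi3l1 replicates 1, 2 and 3, against 56.6, 133, 114 and 86.5 CPM in shSC replicates 1 to 4. Of these sums Eng, which macrophages also carry, made up 7.62, 50.4 and 68.1 CPM in shChi3l1 and 14.1, 38.1, 21.3 and 20.4 CPM in shSC libraries. The endothelial genes among the 10 summed to 27.9, 20.0 and 136 CPM in shChi3l1 and 21.1, 54.8, 68.8 and 30.8 CPM in shSC libraries. Per kilobase of exon and averaged over the 7 libraries, the complement gene C1qb stood at 7520 CPM. On that scale the most abundant of the 10 vascular genes, Ly6c1 and Cldn5, stood at 10.8 and 10.6 CPM, followed by Pecam1 at 1.97, Acta2 at 1.84 and Kcnj8 at 1.38. Slco1a4 was at 0.936, Col4a1 at 0.623, Rgs5 at 0.587, Pdgfrb at 0.113 and Abcc9 at 0.0249 CPM per kilobase. In RNA pooled from many cells, fewer vascular cells and less RNA per vascular cell cannot be told apart.

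**Figure D1:**
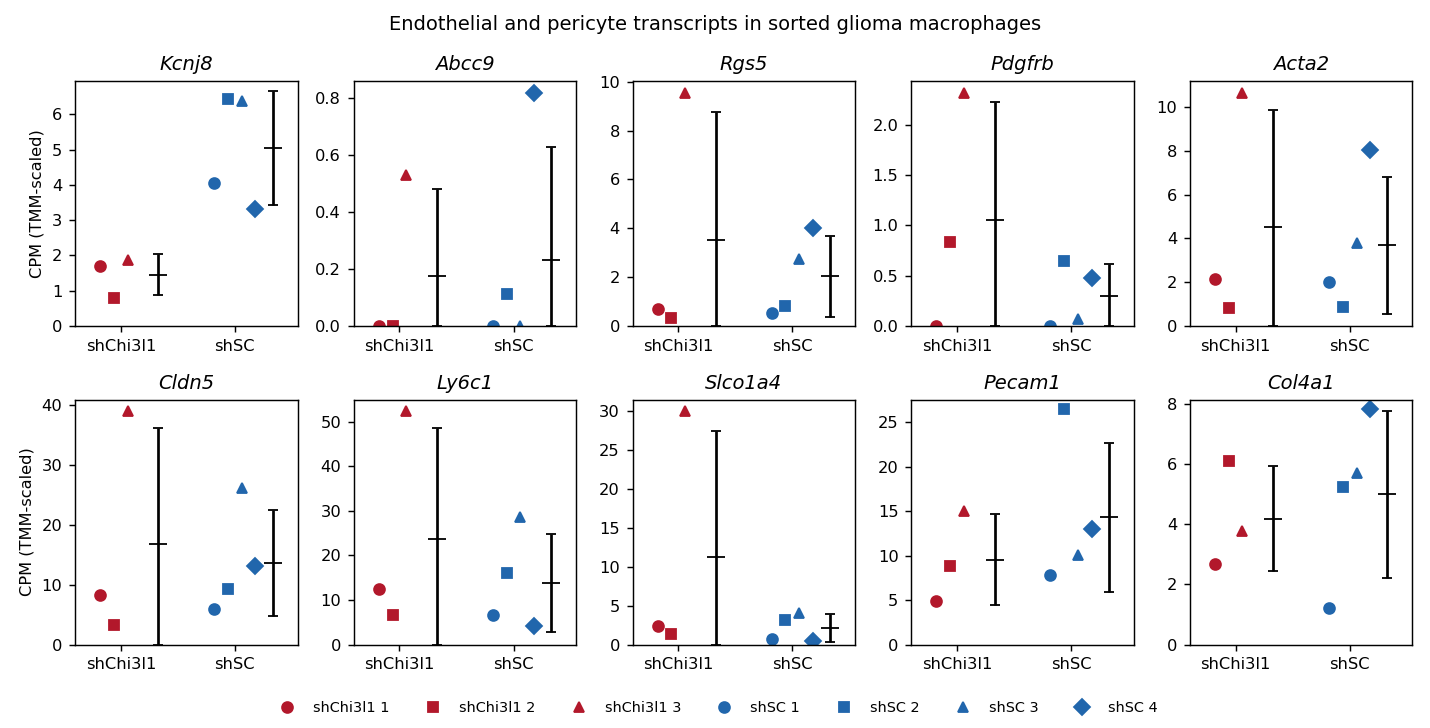
Each panel plots 1 gene's CPM (vertical axis, starting at 0) in the 3 shChi3l1 and 4 shSC libraries, with the mean and SD as black bars, cut at 0 where the SD exceeds the mean. Kcnj8 is the gene whose groups do not overlap (0.802 to 1.87 CPM against 3.31 to 6.44 CPM), and shChi3l1 3 is the highest library in 6 of the 10 panels.

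Kcnj8 was lower in every shChi3l1 library than in any shSC library. It encodes Kir6.1, the pore subunit of the ATP-sensitive potassium channel of vascular mural cells (ENSMUSG00000030247.9, mm10 chromosome 6, 142564837 to 142571614, minus strand). Kcnj8 had 1.70, 0.802 and 1.87 CPM in shChi3l1 replicates 1 to 3, against 4.04, 6.44, 6.38 and 3.31 CPM in shSC replicates 1 to 4. The reads behind them numbered 40, 27 and 46 in shChi3l1 and 77 to 228 in shSC libraries. Kcnj8 averaged 1.46 ± 0.574 CPM (SD over 3 libraries) with the Chi3l1 hairpin and 5.04 ± 1.61 CPM (SD over 4 libraries) with the control hairpin. The log2 fold change was -1.79 (SE 0.51). Without shChi3l1 3 it was -2.01 (SE 0.64), and leaving out any 1 library gave -2.01 to -1.50. The gene was picked on this value, which is no independent evidence of a difference. Among all 15448 genes tested, 1.25% had groups that did not overlap with shChi3l1 lower and 1.24% with shChi3l1 higher.

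Abcc9 encodes SUR2, the regulatory subunit that assembles with Kir6.1 into that channel, and lies 16247 bases from Kcnj8 on the same strand (ENSMUSG00000030249.15, chromosome 6, 142587862 to 142702315). It was barely detected in either group. Abcc9 had 0, 0 and 13 reads in shChi3l1 replicates 1 to 3, against 0, 4, 0 and 19 reads in shSC replicates 1 to 4. The highest levels were 0.528 CPM in shChi3l1 3 and 0.817 CPM in shSC 4, and a count of 0 allows up to 0.0891 to 0.128 CPM in the libraries concerned. Abcc9 did not pass the filter on low counts, so it has no fold change. In shSC 1 and shSC 3, where Kcnj8 had 114 and 187 reads, Abcc9 had none, although its exons are longer (8373 against 2548 bases). The other pair of ATP-sensitive potassium channel genes, Kcnj11 and Abcc8, had 1 read between them in all 7 libraries, a Kcnj11 read in shSC 4.

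With all 7 libraries, the remaining mural genes did not share the pattern of Kcnj8, which was picked for its difference between the groups. Over the 7 libraries, the log2 CPM of Kcnj8 had Pearson correlations with the other 9 members of -0.24 (Pdgfrb) to 0.45 (Pecam1). With Rgs5 the correlation was 0.23. The choice of Kcnj8 bears on these correlations, and the contrast in fold changes rested on shChi3l1 3. Without that library the log2 fold changes were -2.01 for Kcnj8, -2.01 for Rgs5, -1.32 for Acta2 and 0.50 for Pdgfrb. Which cells of the sort the Kcnj8 reads came from was not tested. Rgs5 encodes a regulator of G-protein signalling abundant in brain pericytes (ENSMUSG00000026678.10, chromosome 1, 169655501 to 169695813, plus strand). It had 0.681, 0.327 and 9.55 CPM in shChi3l1 replicates 1 to 3, against 0.532, 0.819, 2.76 and 4.00 CPM in shSC replicates 1 to 4. The groups overlapped, and shChi3l1 3 alone was above all shSC libraries. Acta2 encodes the smooth muscle actin of contractile mural cells (ENSMUSG00000035783.9, chromosome 19, 34241090 to 34255590, minus strand). It had 2.13, 0.832 and 10.7 CPM in shChi3l1 libraries and 2.02, 0.875, 3.79 and 8.04 CPM in shSC libraries. The same 3 libraries, shChi3l1 3, shSC 4 and shSC 3, were the highest for both genes. Pdgfrb, the receptor for platelet-derived growth factor B that pericytes need for recruitment to vessels, had 0, 28 and 57 reads in shChi3l1 libraries and 0, 23, 2 and 11 reads in shSC libraries. Its highest level was 2.32 CPM, again in shChi3l1 3.

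**Figure D2:**
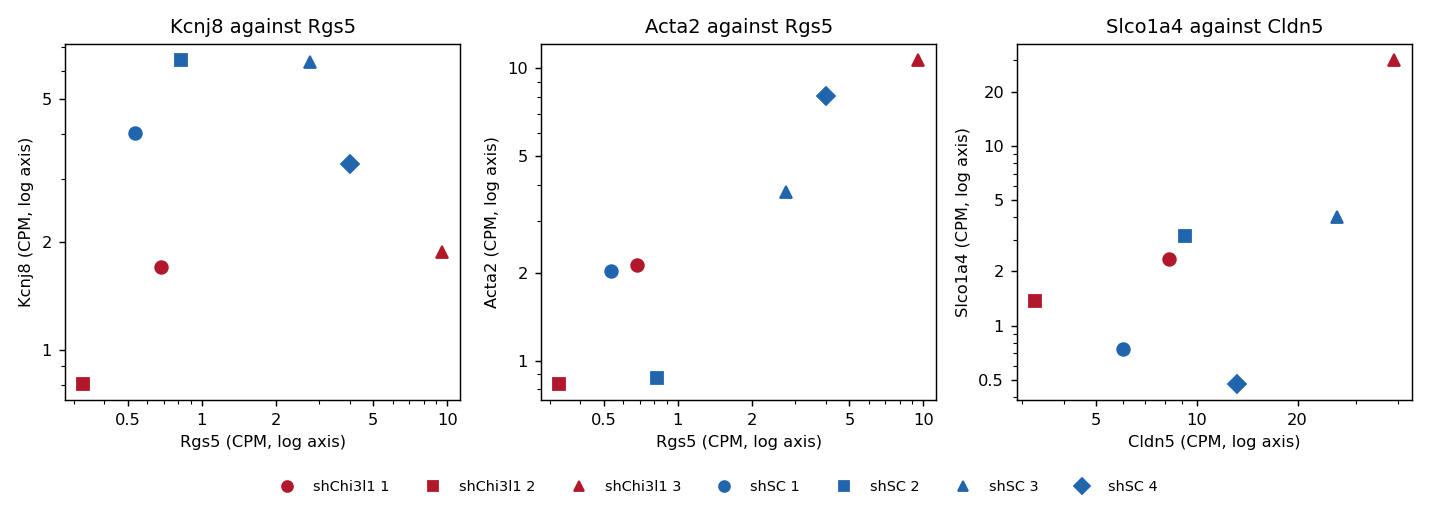
Each point is 1 library, with CPM of 1 gene on each axis (both log axes). Acta2 is highest in the 3 libraries where Rgs5 is highest, whereas Kcnj8 at 0.802 to 1.87 CPM in the shChi3l1 libraries spans Rgs5 levels of 0.327 to 9.55 CPM; Slco1a4 against Cldn5 sets shChi3l1 3 apart at 29.9 and 39.0 CPM.

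The ratio of Kcnj8 to Rgs5 therefore varied widely. It was 2.5, 2.45 and 0.196 in shChi3l1 replicates 1 to 3, against 7.60, 7.86, 2.31 and 0.828 in shSC replicates 1 to 4. In each same-numbered pair it was lower in the shChi3l1 library for replicates 1, 2 and 3, which the choice of Kcnj8 bears on. The ratio of Cldn5 to Rgs5, an endothelial over a pericyte gene, was steadier, at 12.1, 10.0 and 4.08 in shChi3l1 and 11.3, 11.3, 9.48 and 3.30 in shSC libraries. The low values of both ratios were in shChi3l1 3 and shSC 4. The 3 tested genes most like Kcnj8 over the 7 libraries, by Pearson correlation of log2 CPM, were 4732440D04Rik (r = 0.978), Tuba8 (0.941) and Mtmr11 (0.939). All 3 were scarce: 4732440D04Rik stayed at or below 1.09 CPM, and the tubulin gene Tuba8 had 0 reads in all 3 shChi3l1 libraries and 17, 34, 21 and 3 reads in shSC libraries. With so many genes and only 7 libraries sharing 2 groups, such values describe these libraries only.

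The 250 bases before and 50 after the annotated start of 3 genes are shown from RefSeq (GRCm38.p6). They are Kcnj8, by which the set was chosen, and Cldn5 and Slco1a4, which were highest together in shChi3l1 3. Capitals mark GGAA, the core bound by ETS factors, several of which act in endothelial genes, on either strand.
Kcnj8, chr6:142571565-142571864, minus strand: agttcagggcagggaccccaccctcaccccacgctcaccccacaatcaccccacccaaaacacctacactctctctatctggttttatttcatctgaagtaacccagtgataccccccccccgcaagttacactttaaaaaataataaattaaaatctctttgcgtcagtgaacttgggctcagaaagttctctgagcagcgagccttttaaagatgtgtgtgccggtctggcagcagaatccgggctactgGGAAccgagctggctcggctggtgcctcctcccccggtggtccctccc
Cldn5, chr16:18776597-18776896, plus strand: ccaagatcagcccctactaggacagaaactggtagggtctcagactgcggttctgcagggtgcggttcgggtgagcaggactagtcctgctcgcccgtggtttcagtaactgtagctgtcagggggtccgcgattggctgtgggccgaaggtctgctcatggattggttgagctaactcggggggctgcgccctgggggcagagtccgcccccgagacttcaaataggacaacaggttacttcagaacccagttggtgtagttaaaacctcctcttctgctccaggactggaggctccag
Slco1a4, chr6:141856171-141856470, minus strand: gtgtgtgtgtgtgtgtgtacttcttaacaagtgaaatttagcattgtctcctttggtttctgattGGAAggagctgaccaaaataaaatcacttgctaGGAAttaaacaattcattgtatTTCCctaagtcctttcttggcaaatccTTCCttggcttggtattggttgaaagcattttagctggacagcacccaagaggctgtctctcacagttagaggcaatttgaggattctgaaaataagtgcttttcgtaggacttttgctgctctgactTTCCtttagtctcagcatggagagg
The core occurred 1 time in the Kcnj8 window, 5 times in the Slco1a4 window and not at all in the Cldn5 window. It is present in 96.0% of 32851 promoter windows of this length, and 8 of the 10 vascular genes had a window in the table. The forkhead core GTAAACA, searched on both strands, was in 0 of their 9 windows (1 gene has more than 1) and in 3.60% of all windows. These matches are letters in a window and show no binding.

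The endothelial genes were highest in shChi3l1 3, with the exception of Pecam1. Cldn5 encodes claudin-5, the main tight-junction protein of brain endothelium (ENSMUSG00000041378.2, chromosome 16, 18776847 to 18778262, plus strand). It had 8.26, 3.27 and 39.0 CPM in shChi3l1 replicates 1 to 3, against 5.99, 9.23, 26.2 and 13.2 CPM in shSC replicates 1 to 4. Slco1a4 encodes Oatp1a4, an organic anion transporter of the blood-brain barrier (ENSMUSG00000030237.14, chromosome 6, 141805440 to 141856199, minus strand). It had 2.34, 1.37 and 29.9 CPM in shChi3l1 libraries, against 0.745, 3.16, 4.03 and 0.473 CPM in shSC libraries. For both genes shChi3l1 3 was the highest of the 7 libraries, while the other 2 shChi3l1 libraries lay within or below the shSC range. Slco1a4 had the widest span among the 8 vascular genes detected in every library, with 63.3-fold between its highest and lowest library. Its ratio to Cldn5 was 0.767 in shChi3l1 3 and 0.0358 in shSC 4, the extremes of the 7.

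Ly6c1 encodes a small membrane-anchored surface protein found on brain endothelium (ENSMUSG00000079018.10, chromosome 15, 75044018 to 75048830, minus strand). It had 12.4, 6.54 and 52.3 CPM in shChi3l1 replicates 1 to 3, against 6.56, 16, 28.5 and 4.13 CPM in shSC replicates 1 to 4. As with Cldn5, shChi3l1 3 was highest and shSC 3 second. Its counts are uncertain because of Ly6c2, a neighbouring copy that marks monocytes and was far more abundant in these sorts, at 562, 609 and 506 CPM in shChi3l1 and 566, 442, 366 and 84.8 CPM in shSC libraries. In the GENCODE release 21 transcripts Ly6c1-201 and Ly6c2-201, the coding sequences of 396 bases are 97.7% identical and differ at 9 bases. The first 90 coding bases of each, which hold 6 of the differences, show how little separates them, with the differing bases in capitals.
Ly6c1, chr15:75047450-75048511 (exons only), minus strand: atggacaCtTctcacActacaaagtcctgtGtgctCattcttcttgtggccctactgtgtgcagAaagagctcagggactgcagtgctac
Ly6c2, chr15:75110608-75111667 (exons only), minus strand: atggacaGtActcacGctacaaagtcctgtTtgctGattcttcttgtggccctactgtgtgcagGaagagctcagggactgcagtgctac
Of the 347 windows of 50 bases in the Ly6c1 coding sequence, 162 (46.7%) occur unchanged in Ly6c2, and a 50-base read from there cannot be assigned by its letters. The 50 bases were a setting chosen here and not a measured read length. Only coding bases were compared, out of 1677 exon bases of Ly6c1, so the share of ambiguous reads is not known. Ly6c1 made up 2.16%, 1.06% and 9.38% of the reads of both genes in shChi3l1 libraries and 1.15%, 3.49%, 7.23% and 4.64% in shSC libraries. Ly6c1 thus did not keep a fixed proportion to Ly6c2; the part of reads misassigned from Ly6c2 was not tested.

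Pecam1 encodes the adhesion molecule CD31, which platelets and many leukocytes carry besides endothelium (ENSMUSG00000020717.19, chromosome 11, 106654217 to 106750628, minus strand). It had 4.89, 8.82 and 15.0 CPM in shChi3l1 replicates 1 to 3, against 7.77, 26.5, 10.0 and 13.0 CPM in shSC replicates 1 to 4. The highest library was shSC 2. Platelet markers, a list of 5 genes, were low, with sums of 0.766 to 3.66 CPM in shChi3l1 and 1.42 to 5.42 CPM in shSC libraries, the highest also in shSC 2. Itga2b, the most abundant of them, had 0.681, 2.53 and 1.46 CPM in shChi3l1 and 0.355, 2.77, 3.10 and 0.645 CPM in shSC libraries. Ppbp had 0, 0 and 11 reads in shChi3l1 libraries and 26, 87, 4 and 47 reads in shSC libraries. Gp9 went the other way from Ppbp, with 2, 4 and 42 reads in shChi3l1 libraries and 0, 7, 0 and 0 reads in shSC libraries. Gp1ba, a platelet receptor gene, had at most 4 reads in any library. Gp1bb had at most 1, but 92.9% of its exon bases overlap other genes, so its count says little. The part of other cells in the Pecam1 level was not tested.

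Col4a1 encodes a chain of type IV collagen, the scaffold of vascular basement membranes (ENSMUSG00000031502.11, chromosome 8, 11198423 to 11312826, minus strand). It had 2.68, 6.12 and 3.78 CPM in shChi3l1 replicates 1 to 3, against 1.21, 5.25, 5.70 and 7.83 CPM in shSC replicates 1 to 4. The lowest levels were in the libraries numbered 1 of both groups. Those 2 libraries also had the smallest share of reads in genes longer than 5000 bases, 12.6% in shChi3l1 1 and 14.8% in shSC 1, against 16.8% to 20.7% in the other libraries of both groups. Of the 10 genes, Abcc9, Pdgfrb, Slco1a4, Pecam1 and Col4a1 are longer than that, and the part of this share in their levels was not tested.

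**Figure D3:**
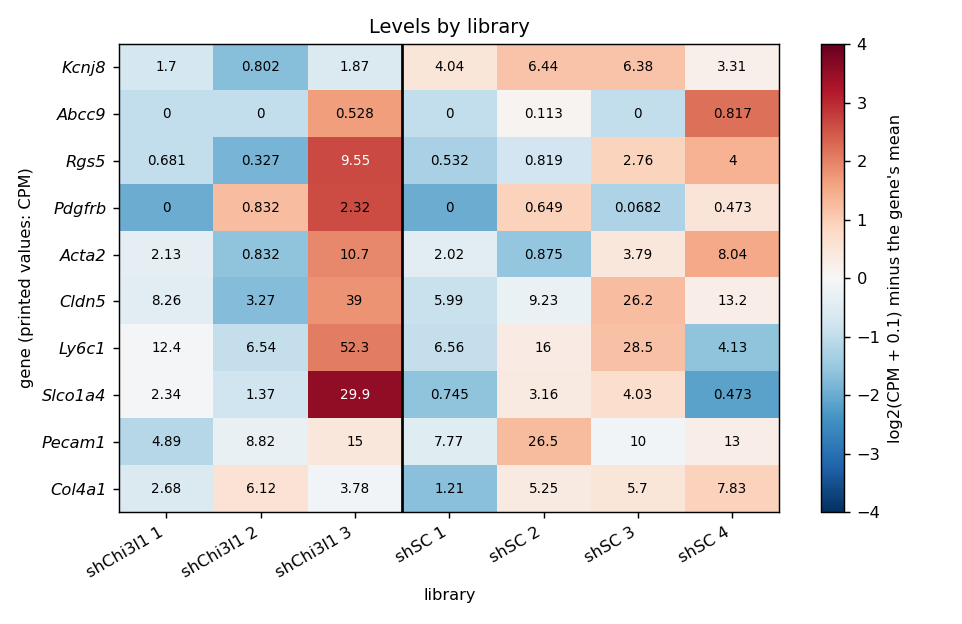
Rows are the 10 genes and columns the 7 libraries, with CPM printed in each cell and colour showing log2(CPM + 0.1) minus the gene's mean over libraries (red higher, blue lower). The column of shChi3l1 3 is red for 8 genes and blue for Kcnj8 and Col4a1, and Kcnj8 is the row that is blue in all 3 shChi3l1 columns and red in all 4 shSC columns.

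Across the 9 genes that passed the filter, 6 had a positive and 3 a negative log2 fold change, with a median of 0.30, beside 57.6% positive, 42.4% negative and a median of 0.07 over all 15448 tested genes. The sign of most of them turned on shChi3l1 3. Without that library, 1 was positive and 8 were negative with a median of -1.06, beside 56.4% positive, 43.6% negative and a median of 0.07 over all genes. Rgs5 moved to -2.01 (SE 1.02) without it, against 0.80 (SE 1.12) with it, and Cldn5 to -1.25 (SE 0.71) against 0.30 (SE 0.80). Acta2 moved to -1.32 (SE 0.93) against 0.30 (SE 0.93), and Ly6c1 to -0.55 (SE 0.78) against 0.78 (SE 0.81). Slco1a4 moved to -0.19 (SE 0.92) against 2.41 (SE 1.11). Kcnj8, Pecam1 (-1.06 without it, -0.58 with it) and Col4a1 (-0.18 and -0.25) were negative both ways, and Pdgfrb was positive both ways (0.50 and 1.80). The members were chosen with this contrast known, and these counts support no difference between the hairpins.

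**Figure D4:**
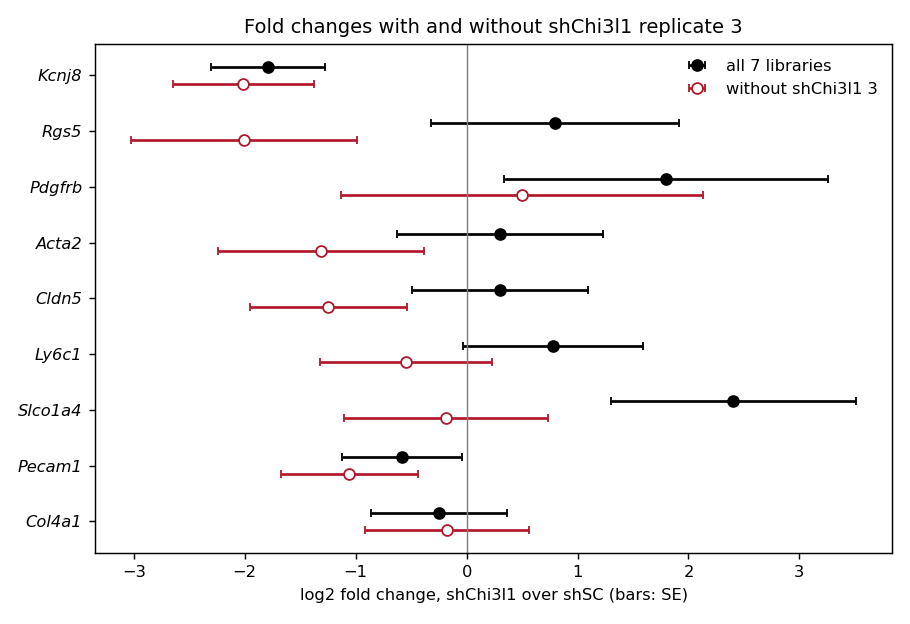
Points are log2 fold changes of shChi3l1 over shSC (horizontal axis) with SE bars for the 9 genes that passed the low-count filter. Black points use all 7 libraries and open red points leave out shChi3l1 3, which moves Rgs5, Acta2, Cldn5, Ly6c1 and Slco1a4 across 0 and leaves Kcnj8 at -2.01 against -1.79.

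In the fit over all 15448 genes, 0% passed an adjusted p of 0.05 in edgeR's quasi-likelihood test. At an unadjusted p under 0.05 that test had 229 genes, 1.48% of those tested, and DESeq2's Wald test called 1 gene after adjustment, the immunoglobulin segment Igkv4-58. ShChi3l1 3 was the highest of the 7 libraries for 6 of the 10 vascular genes, and for 14.6% of all tested genes.

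Further endothelial genes were also highest in shChi3l1 3. Of the 25 genes 23 were tested, and 18 were higher and 5 lower in shChi3l1, with a median log2 fold change of 0.80. That library was the highest for 18 of the 23. Without it 6 were higher and 17 lower, with a median of -0.51, and no gene of the list had an unadjusted p under 0.05 with all libraries. Eng, a co-receptor of the TGF-beta family that macrophages also carry, was the most abundant, with 7.62, 50.4 and 68.1 CPM in shChi3l1 and 14.1, 38.1, 21.3 and 20.4 CPM in shSC libraries. Itm2a, a membrane protein of brain endothelium, had 14.9, 5.29 and 71.8 CPM in shChi3l1 libraries and 5.00, 10.1, 21.5 and 7.61 CPM in shSC libraries. Cd34, a sialomucin of endothelium and blood progenitors, had the smallest unadjusted p of these genes. Its log2 fold change was 1.62 (SE 0.76, edgeR adjusted p 0.9998) and -0.01 (SE 0.57) without shChi3l1 3. Other genes of the list were scarce. Cdh5 had 1, 8 and 16 reads in shChi3l1 libraries and 9, 14, 19 and 8 reads in shSC libraries. Emcn had 6, 0 and 43 reads in shChi3l1 and 7, 17, 27 and 26 reads in shSC libraries, and Erg at most 3 in any library. The 3 genes most like Cldn5 over the 7 libraries were Lims2 (Pearson r = 0.988), Tbxa2r (0.962) and Gm11870 (0.962), the first of which encodes an adaptor at sites of cell adhesion and the next the thromboxane receptor.

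Further mural genes were sparse, and of those tested 4 were highest in shSC 4 and 4 in shChi3l1 3. Of 20 genes 10 passed the filter, with 4 higher and 6 lower in shChi3l1 and a median log2 fold change of -0.32, which was -2.07 without shChi3l1 3, 0.07 without shSC 3 and 0.12 without shSC 4. The list summed to 7.32, 4.52 and 26.0 CPM in shChi3l1 replicates 1 to 3 and 5.46, 8.13, 16.4 and 47.6 CPM in shSC replicates 1 to 4 once Anpep was left out. Anpep, an aminopeptidase that myeloid cells also express, alone had 4.34, 73.5 and 19.9 CPM in shChi3l1 and 12.8, 31.8, 13.1 and 23.3 CPM in shSC libraries. Cspg4 encodes the NG2 proteoglycan of pericytes and of glial progenitors. It had 1.02, 1.43 and 1.46 CPM in shChi3l1 libraries and 0.816, 2.65, 1.26 and 15.3 CPM in shSC libraries. Higd1b, a pericyte marker, had 1.19, 0.0891 and 1.87 CPM in shChi3l1 libraries and 0.851, 0.678, 5.05 and 7.91 CPM in shSC libraries. Heyl was the 1 gene of this list whose groups did not overlap, and it did not pass the filter. It is therefore outside the tested genes, of which 1.25% had groups that did not overlap with shChi3l1 lower. Heyl had 0 reads in all 3 shChi3l1 libraries and 21, 2, 5 and 7 reads in shSC libraries. The smooth muscle gene Cnn1 and the pericyte gene Atp13a5 had at most 1 read in any library.

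Basement membrane genes went both ways, and none passed adjustment. Of 13 genes 12 were tested, with 8 higher and 4 lower and a median log2 fold change of 0.41, which was -0.65 without shChi3l1 3. Sparc, a matrix protein made by endothelium and also by microglia, had 33.3, 127 and 445 CPM in shChi3l1 libraries and 22.4, 37.6, 72.6 and 54.4 CPM in shSC libraries. Its log2 fold change was 2.11 (SE 0.75), and 0.78 (SE 0.61) without shChi3l1 3. Lamb1, a laminin chain, had 0, 1 and 0 reads in shChi3l1 libraries and 7, 14, 10 and 32 reads in shSC libraries, a ratio of 0.0226 with a 95% exact counting interval of 0.000562 to 0.130. Lama4, a laminin chain of vessels noticed after its values were seen, had 2, 5 and 1 reads in shChi3l1 libraries, against 5, 33, 29 and 71 reads in shSC libraries. Both had an edgeR adjusted p of 0.9998, and Lama4 had a log2 fold change of -3.71 (SE 1.08), which was -3.39 (SE 1.26) without shChi3l1 3. Both were highest in shSC 4.

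Ligands of vascular receptors showed no common direction. Of 12 genes 9 were tested, with 4 higher and 5 lower and a median log2 fold change of -0.02. Vegfa, the main endothelial growth factor, was the most abundant and had the smallest unadjusted p in this list, with 112, 358 and 234 CPM in shChi3l1 libraries and 34.9, 132, 111 and 117 CPM in shSC libraries. Its log2 fold change was 1.25 (SE 0.53) with an edgeR adjusted p of 0.9998, and 1.25 (SE 0.62) without shChi3l1 3.

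Markers of other cells were high in shChi3l1 3, the highest library for most endothelial genes, and others in shSC 4. The members for mural cells summed to 24.9 CPM in shChi3l1 3 and 16.6 CPM in shSC 4, the highest sums of the 7, whereas those for endothelium summed to 136 CPM in shChi3l1 3 and 30.8 CPM in shSC 4, below shSC 2 and shSC 3 (54.8 and 68.8 CPM). In shChi3l1 3, the 4 B-cell markers summed to 272 CPM, against 23.2 and 52.8 CPM in the other shChi3l1 libraries and 15.9 to 171 CPM in shSC libraries. The 5 microglia markers summed to 1903 CPM there, against 270 and 431 CPM in the other shChi3l1 libraries and 148 to 328 CPM in shSC libraries. Of these, Tmem119 had a log2 fold change of 1.33, and 0.20 without shChi3l1 3, and Siglech of 3.53, and 1.82 without it. The median of the 5 was 2.03, and 0.90 without that library. With all libraries 3 of the 5 had an unadjusted edgeR p under 0.05, beside 1.48% of all genes tested, and 0 passed adjustment. In shSC 4, the 8 glioma and glial markers summed to 301 CPM, against 10.8 to 80.4 CPM in shChi3l1 (the lowest in shChi3l1 3) and 39.1 to 66.0 CPM in the other shSC libraries. The 8 fibroblast markers summed to 15.4 CPM in shSC 4, against 1.01 to 2.64 CPM in shChi3l1 and 0.709 to 2.49 CPM in the other shSC libraries. Pdgfra, which glial progenitors also express, made up 11 CPM of that sum. Among the other fibroblast genes, Col3a1, Col1a2 and Col6a1 stood at 1.68, 1.07 and 0.516 CPM there. Col1a1, Dcn and Lum stood at 0.430, 0.430 and 0.258 CPM there, and Dpt at 0. Red-cell markers, of cells lysed before the sort per the labels, summed to 26.2 CPM in shChi3l1 3 and 60.6 CPM in shSC 4, and to 2.29 to 13.4 CPM in the other 5 libraries. T-cell and NK-cell markers followed neither library, with 58.5 to 381 CPM in shChi3l1 and 55.3 to 486 CPM in shSC libraries. Monocyte markers summed to 1034 to 3350 CPM in shChi3l1 and 495 to 2203 CPM in shSC libraries, and neutrophil markers to 3.94 to 70.6 CPM in shChi3l1 and 3.55 to 30.2 CPM in shSC libraries. Of the 70.6 CPM, in shChi3l1 1, S100a8 alone made up 67.4 CPM, while S100a9 had 4 reads there. S100a9 and Retnlg were highest in shSC 2, at 3.08 and 24.0 CPM. Ly6g was highest in shChi3l1 1 at 0.213 CPM, and Cxcr2 in shSC 1 at 0.638 CPM. The part of these cells in the vascular levels was not tested.

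**Figure D5:**
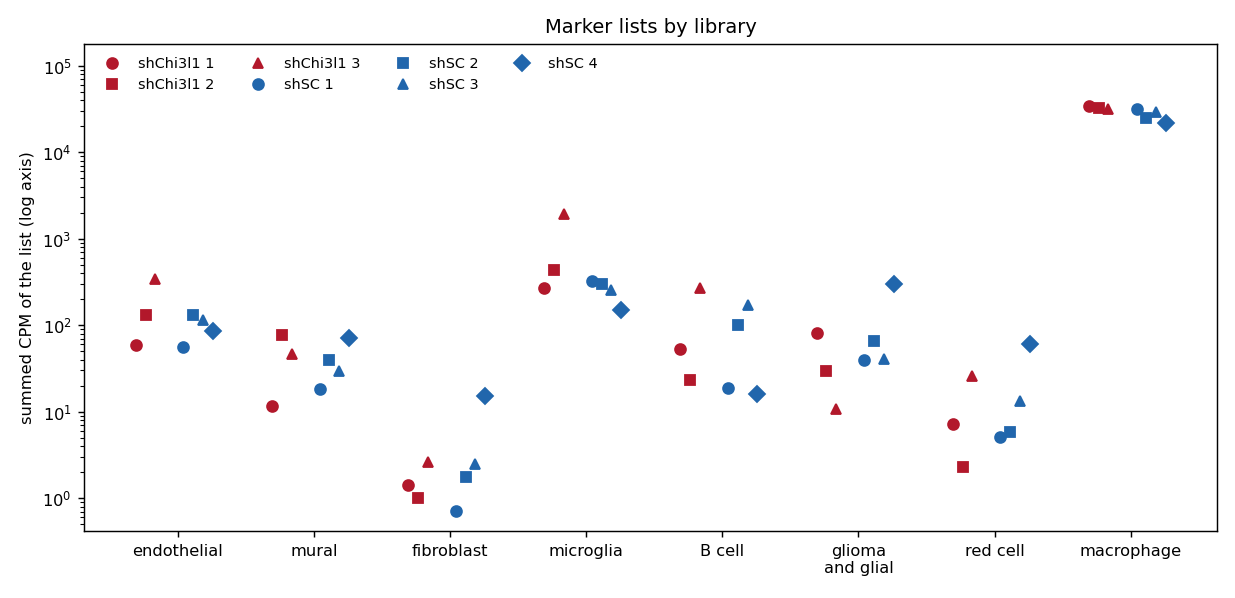
The summed CPM of 8 marker lists (log axis) is shown for each library, with shChi3l1 libraries left of shSC libraries in each list. Endothelial, microglia and B-cell sums are highest in shChi3l1 3 (343, 1903 and 272 CPM), fibroblast, glioma and red-cell sums in shSC 4 (15.4, 301 and 60.6 CPM), and macrophage sums exceed 21933 CPM in all 7.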

How the data were processed

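The deposited values are whole-number read counts per gene, 1 file per library. The submitters' processing notes name Trim Galore, HISAT2, featureCounts and mm10. Not given in the sources used here are their versions, the annotation and the sort's antibodies. Per the labels' protocols, 10 ng of RNA went into a SMART-Seq kit and 1 ng of the cDNA into Nextera XT. That kit does not mark strand. PCR copies are not independent molecules, so intervals and the floor of 3 counts cover counting error only.

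Symbols came from GENCODE mouse release 21 (55144 of 55385 IDs matched without version). Overlap with other genes covered at most 1.9% of the exon bases of any of the 10 members. Members and lists were chosen with earlier results of these data known. Genes kept by filterByExpr (minimum count 10) were scaled by TMM and fitted with edgeR 4.0.16's quasi-likelihood test in R 4.3.3, with hairpin as the only term, over 15448 genes. Adjusted p-values are Benjamini-Hochberg values. CPM use TMM-scaled totals, and logarithms for correlations add 0.5 counts. Standard errors were derived from the F statistic. Fits that left out libraries kept the same 15448 genes.

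Besides the 10 members, the genes to be named were each list's most abundant gene and its gene of smallest unadjusted p (the 3 most abundant for endothelial and mural lists), and the 3 genes most like Kcnj8 and Cldn5. Others named were chosen after their values were seen.

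The labels pair replicates 1 to 3 in a figure of the study. Deviations from group means correlated at 0.306, 0.260 and 0.188 in these pairs, above the limit of 0.1 (pairs of unlike number ranged from -0.479 to 0.322, with 0.322 for shChi3l1 3 with shSC 2 and 0.200 for shChi3l1 2 with shSC 4), so a fit with the replicate number as a block was run on these 6 libraries. No 2 libraries were duplicates (chi-square per gene at least 139). The test was checked on simulated data. Alternatives were scaling by upper quartile or DESeq2 size factors, no filter, each library left out, the block, DESeq2 1.42.0, CPM on plain totals and, added after seeing the data, removal of shChi3l1 3 with shSC 4.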

Additional observations from a re-analysis of the deposited data

Results flagged for a closer look

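Within the 4 shSC libraries, 12 of 62 measures had 1 library far from the other 3 by Dixon's criterion. The criterion's nominal rate of about 1 in 20 assumes independent measures. Here a gene and the list that holds it were counted separately, so the count cannot be set against that rate. The outlying library was shSC 4 in all of them. It had 0.817 CPM of Abcc9, 15.3 CPM of Cspg4, 11 CPM of Pdgfra and 1.38 CPM of Lamb1. It also had 141 CPM of Fabp7, a lipid carrier of glial progenitors, 34.2 CPM of Hbb-bs and 26.3 CPM of Hba-a1. The fibroblast list summed to 15.4 CPM there, most of it Pdgfra, the glioma and glial list to 301 CPM and the red-cell list to 60.6 CPM. Kcnj11 and the list of the other potassium channel subunits stood at 0.0430 CPM there, which is a single read. Kcnj8 was not among the measures that met the criterion.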

How the results depend on the processing

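Kcnj8 stayed lower in shChi3l1 under all 13 alternatives, with log2 fold changes of -2.17 to -1.50, and Pecam1 and Pdgfrb also kept their sign under all 13. Rgs5, Acta2, Cldn5, Ly6c1 and Slco1a4 changed sign without shChi3l1 3, alone or with shSC 4. Acta2 did so also without shSC 2, and Cldn5 with the replicate block. Col4a1 changed sign without shSC 4, with the block, and without shChi3l1 3 and shSC 4. The median log2 fold change of the further endothelial genes was 0.80, and -0.51 to 1.10 when 1 library was left out, the lowest without shChi3l1 3. It was -0.53 without shChi3l1 3 and shSC 4. The median of the further mural genes was -0.32, and -2.07 to 0.12 when 1 library was left out, the lowest without shChi3l1 3 and the highest without shSC 4, and -1.21 without shChi3l1 3 and shSC 4. With the replicate block the medians were 0.41 and 0.01, and 0 genes passed adjustment; the block changed no call. Genes passing adjustment numbered 0 under every alternative except DESeq2's Wald test, which called 1. Genes with an unadjusted p under 0.05 numbered 229 with all libraries, 927 without the filter, 843 without shChi3l1 1, 451 with the block, 350 with DESeq2's test and 143 without shChi3l1 3 and shSC 4. The causes were not tested. Mural genes rest on few reads (0 to 262 per library for the 5 named above), which limits how small a difference could be seen.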
